A study of Homo sapiens with 6 samples.

Results

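The 4 mature arms of miR-151a and miR-28 were followed in small RNA libraries of extracellular vesicles (exosomes) from MHCC97H, a line of human liver cancer cells that spread readily. They were picked by name, as the rows called hsa-miR-151a-3p, hsa-miR-151a-5p, hsa-miR-28-3p and hsa-miR-28-5p, from 1007 rows of which 497 carried known human miRNA names. The arms were put forward with counts of these libraries in view, so their differences between the groups are a description. Which of them passed a threshold is stated as part of that description and supports nothing. Vesicles of control cells (3 libraries) were set against vesicles of cells exposed for 24 h to xanthatin, a plant sesquiterpene lactone, at 4 µmol/L (3 libraries). In both groups the cells were of the same line, DMSO was at 0.5% per the labels, and the medium held bovine serum, part of it depleted of exosomes. Nothing in the labels says that replicates came from separate cultures, so the spread between them may be technical.

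A miRNA gene is transcribed as a hairpin whose left (5p) and right (3p) arms can each be cut out as a mature miRNA. As a rule one arm is loaded into Argonaute and kept, and the other is degraded. Bases 2 to 8 of the mature RNA, the seed, pair with target transcripts. miR-151a and miR-28 belong, with miR-708 and miR-151b, to a group of miRNAs with related hairpins, and both lie inside genes for proteins of cell adhesion. miR-151a has been studied in hepatocellular carcinoma together with its host PTK2, which encodes focal adhesion kinase, in migration and invasion. miR-28 lies in LPP, which encodes a LIM-domain protein of focal adhesions, and its arms have been reported to act differently on tumour cells.

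The mature sequences below show how close a member arm is to the arms of its relative miR-708. They come from the RefSeq table of GRCh38.p14 and are written 5′ to 3′ with the seed in capitals. Of the 4 members, the sequence of 1 is shown.
hsa-miR-28-3p (chr3:188688834-188688855, plus strand): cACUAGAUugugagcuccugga
hsa-miR-708-3p (chr11:79402032-79402053, minus strand): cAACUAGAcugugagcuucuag
hsa-miR-708-5p (chr11:79402077-79402099, minus strand): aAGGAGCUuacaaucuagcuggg
miR-28-3p and miR-708-3p are both 22 nt long, and with miR-708-3p shifted by 1 base they are identical at 17 of 21 aligned bases. Their longest shared run is 8 bases, from position 9 of miR-28-3p and position 10 of miR-708-3p, counted from 1 at the 5′ end. Their seeds differ, and 0 other mature names of the table hold the seed of either. The seed of miR-708-5p is shared with 1 other name there, hsa-miR-3139. miR-28-5p had no entry there, so this count does not show whether a member shares that seed. Whether the 5p arms of miR-151a and miR-28 have the same seed was not checked here.

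In the GENCODE release 29 annotation of GRCh38, the MIR28 hairpin lies on chromosome 3 from 188688781 to 188688866, on the plus strand. It falls within LPP on the same strand, in an intron of each of the 6 LPP transcripts that span it. The MIR151A hairpin lies on chromosome 8 from 140732564 to 140732653, on the minus strand, within PTK2 on the same strand. It overlaps an exon in 0 of the 16 PTK2 transcripts that span it. MIR708 lies on chromosome 11 from 79402022 to 79402109, in an intron of TENM4 on the same strand, and MIR151B on chromosome 14 from 100109419 to 100109514, within EVL but on the opposite strand.

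The libraries differed in depth between the groups, with 63965 to 80088 miRNA counts in each control library and 204520 to 267956 after xanthatin. Levels below are CPM, counts set against library totals scaled by TMM, a method that sets the bulk of miRNAs level between libraries. The counts carry no length term. Reads were amplified, and ligation of adapters can differ by sequence, so levels of different miRNAs or arms are compared as reads, not as molecules. A CPM value is a share of the miRNA counts, so it gives neither the number of vesicles nor the amount of a miRNA per vesicle. A lower share of a miRNA cannot be told apart from a larger amount of the others. Marker miRNAs took different shares of the counts in the groups. The 5 hepatocyte markers (miR-122-5p, miR-148a-3p, miR-192-5p, miR-194-5p and miR-885-5p), all in the table, summed to 10.8% to 13.7% of control and 2.71% to 3.27% of xanthatin counts. Of these, 3 had a lower mean share after xanthatin, with miR-885-5p at 0 there, and miR-192-5p and miR-194-5p had a higher one. The blood and serum markers (4 of 7 in the table, with miR-142-5p at 0 in control and miR-150-5p at 0 in xanthatin libraries) summed to 0.619% to 1.19% and 0.0552% to 0.0705%, and 3 of the 4 had a lower share after xanthatin. The 6 stromal and endothelial markers, 1 of them in a row that names several miRNAs, summed to 0.124% to 0.333% and 0.0116% to 0.0215%. All 6 had a lower share after xanthatin, with miR-145-5p and miR-214-3p at 0 there. Their part in the values below was not tested.

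miR-151a-3p was the most abundant miRNA of the control vesicles and stayed among the 3 most abundant after xanthatin, at about the same level. It ranked 1 of all rows in each control library, 3 in xanthatin replicate 1 and 2 in xanthatin replicates 2 and 3. The other 3 arms were far less abundant, and each had a higher mean level in the xanthatin libraries. All 4 were tested with edgeR's quasi-likelihood fit over the whole table, and 0 of the 4 passed an adjusted p of 0.05 in either direction, where 77 of 254 miRNAs (30.3%) did, 13.4% higher and 16.9% lower after xanthatin. At an unadjusted p under 0.05 the count was 2 of the 4 members and 114 of all 254 tested miRNAs. The 2 were miR-151a-5p and miR-28-5p. Neither would have passed the count filter on its control libraries alone, so nothing is read from this count. A miss of the threshold does not show that an arm did not differ. The member calls depended on the tool, with 0 in limma-voom, where 81 of all 254 miRNAs passed. In DESeq2 there were 4, all higher, where 114 of 254 passed, 60 higher and 54 lower. These 4 include the same 5p arms, so nothing is read from that count either. The median log2 fold change was 1.32 over the 4 members and -0.16 over all tested miRNAs. The 4 values ran from 0.10 (miR-151a-3p) to 3.03 (miR-28-5p), so this median does not describe a shared change. Its upper values came from the 5p arms, with 23 control counts for miR-151a-5p and 4 for miR-28-5p.

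miR-151a-3p, the dominant arm of its hairpin, was read 11893, 10018 and 8934 times in control replicates 1, 2 and 3, and 27227, 33586 and 25782 times in xanthatin replicates 1, 2 and 3. Scaled, these counts were 137600, 126600 and 118900 CPM without and 128900, 139600 and 143200 CPM with xanthatin. The groups overlapped, since control replicate 1 lay above xanthatin replicate 1. The mean level was 127700 ± 9436 CPM (SD, n = 3) in control and 137200 ± 7437 CPM in xanthatin libraries. The log2 fold change was 0.10 (SE 0.08).

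The sign of this small difference depended on the total against which the counts were set. As a plain share of miRNA counts miR-151a-3p went from 14.4% ± 0.448 to 12.2% ± 0.665 (SD, n = 3), and every xanthatin library lay below every control library. With library totals only, its log2 fold change was -0.24, past the threshold in the lower direction. The authors' deposited TPM, which uses a larger total per library, was 980 ± 30.3 in control and 986 ± 60.0 in xanthatin libraries, and the groups overlapped. Without the 10 most abundant rows in the scaling, it was 0.47, past the threshold in the higher direction. Across 6 scalings, the median of all tested miRNAs moved from -0.49 to 0.25, and miR-151a-3p lay 0.22 to 0.26 above that median on the log2 scale. A change of scaling shifts all miRNAs nearly alike, so this distance could hardly move and lends the difference no support.

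**Figure D1:**
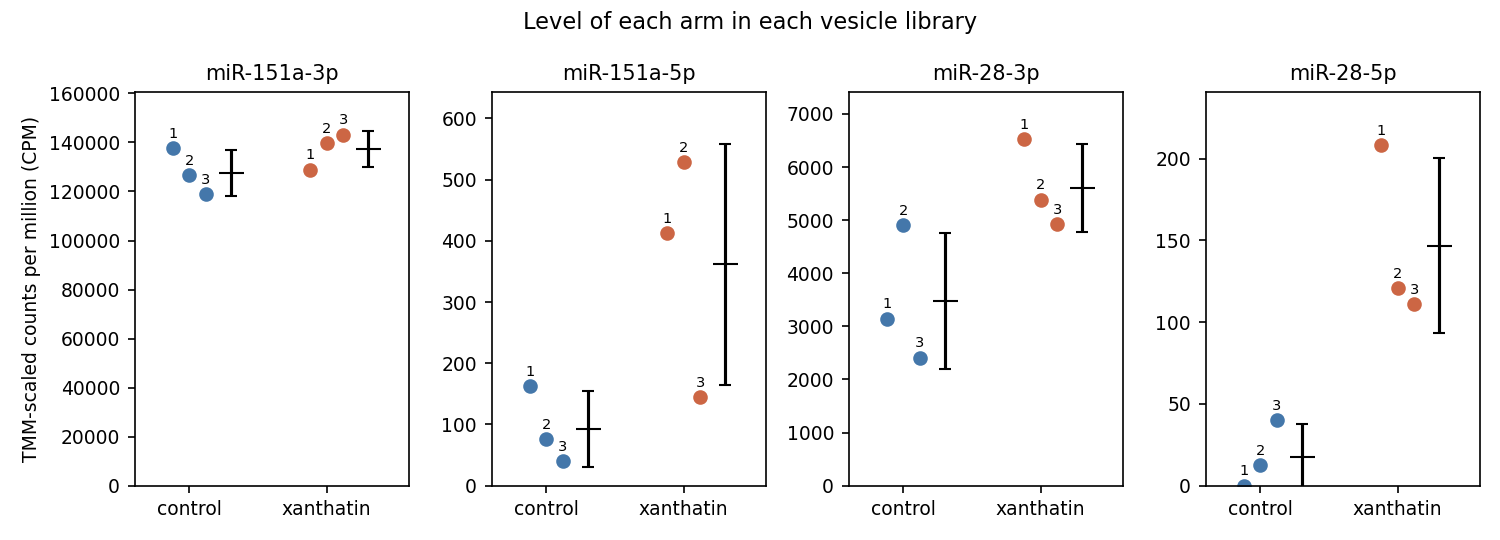
TMM-scaled CPM of each arm (y axis, linear, a scale for each panel) in the 3 control and 3 xanthatin libraries. Points are libraries with their replicate number, and the bar beside them is the mean with its SD. miR-151a-3p sits between 118900 and 143200 CPM in all 6 libraries, and miR-28-5p reaches 111.1 CPM or more only in the xanthatin libraries.

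miR-151a-5p, the arm that has been tied to invasion of liver cancer cells, was scarce in these vesicles. It was read 14, 6 and 3 times in control replicates 1, 2 and 3, and 87, 127 and 26 times in xanthatin replicates 1, 2 and 3. Its levels were 162, 75.8 and 39.9 CPM in the control libraries, in that order, and 412, 528 and 144 CPM after xanthatin. Xanthatin replicates 1 and 2 were above every control library, while xanthatin replicate 3 lay below control replicate 1. The log2 fold change was 1.95 (SE 0.77), from 92.6 ± 62.8 CPM (SD, n = 3) to 361 ± 197 CPM.

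miR-151b, from a hairpin on another chromosome, has a mature sequence contained in that of miR-151a-5p, and how the authors assigned reads that match both is not stated. miR-151b was read 30 times in control replicate 1 and 0 times in each of the other 5 libraries. For the xanthatin libraries, 3 counts over the group, the upper limit that 0 counts allow, equal 4.75 CPM. With the rows of miR-151a-5p and miR-151b summed, a setting chosen after the counts were seen, the control levels became 509, 75.8 and 39.9 CPM. The log2 fold change was then 0.79 (SE 1.03), and control replicate 1 lay above xanthatin replicates 1 and 3. The size of the difference in miR-151a-5p thus depended on the row that holds those 30 reads of control replicate 1.

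miR-28-3p was the main arm of miR-28. It was read 272, 388 and 181 times in control replicates 1, 2 and 3, and 1378, 1296 and 886 times in xanthatin replicates 1, 2 and 3. Its levels were 3148, 4902 and 2408 CPM in the control libraries and 6524, 5388 and 4921 CPM after xanthatin. The groups did not overlap, by the narrow margin between control replicate 2 and xanthatin replicate 3. The mean went from 3486 ± 1281 CPM (SD, n = 3) to 5611 ± 824 CPM. Its log2 fold change was 0.69 (SE 0.29).

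With this scaling and tool, control replicate 2 was the library whose removal moved miR-28-3p past the threshold. Without it the log2 fold change was 1.12, past the adjusted threshold, and without each of the other 5 libraries in turn it was 0.52 to 0.82 and not past it. In the deposited TPM control replicate 2, at 39.1, lay above xanthatin replicate 3, at 33.0, so the groups overlapped on that scale. They also overlapped as plain shares of the miRNA counts, at 0.283% to 0.552% in control and 0.433% to 0.578% in xanthatin libraries.

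miR-28-5p, classed with miR-708-5p in a single seed family, was the rarest of the 4 arms. It was read 0, 1 and 3 times in control replicates 1, 2 and 3, and 44, 29 and 20 times in xanthatin replicates 1, 2 and 3. Its levels were 0, 12.6 and 39.9 CPM in the control libraries and 208, 121 and 111 CPM after xanthatin. All xanthatin libraries were above all control libraries, also in the deposited TPM (0 to 0.319 against 0.744 to 1.52). In a control library, 3 counts equal 34.7 to 39.9 CPM, so the control values were at or below what 0 counts allow. At the mean xanthatin level of 147 CPM a control library would have held 11 to 12.7 counts.

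The log2 fold change of miR-28-5p was 3.03 (SE 1.1), the largest of the 4. The ratio of the groups' count rates was 8.86 (exact 95% Poisson interval 3.35 to 33.2), on 4 control counts. The interval covers counting error only, and replicates differed by more than counting error, so it gives no support to a difference. Without control replicate 3, which held 3 of them, the ratio was 24.4 (4.27 to 973) on 1 control count, and the log2 fold change was 4.42. Without control replicate 1 it was 5.68 (2.14 to 21.3) and without control replicate 2 it was 7.93 (2.63 to 39.1). miR-28-5p passed the count filter through the xanthatin libraries, where it was high, and not through its control counts.

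Of the 4 members, 2 (miR-28-3p and miR-28-5p) had groups that did not overlap in CPM, both higher in xanthatin libraries. Among all tested miRNAs, 54.7% had groups that did not overlap, and 25.2% did so with the xanthatin group higher. miR-28-5p passed the count filter only through the xanthatin libraries, where it was high. The groups of miR-28-3p overlapped in the deposited TPM and as plain shares. Nothing is therefore read from the count of members without overlap.

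**Figure D2:**
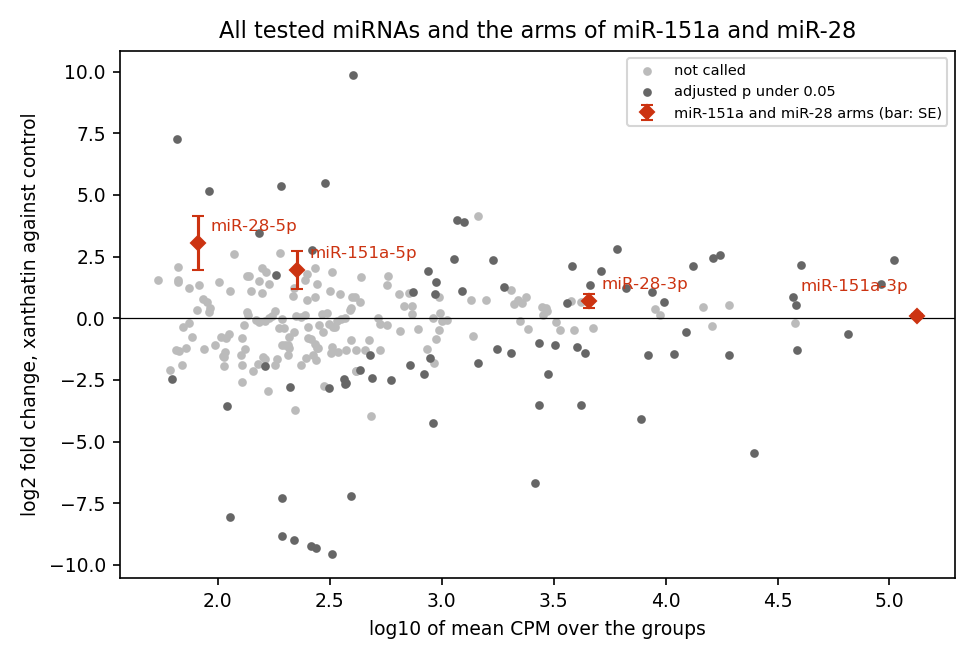
Log2 fold change of xanthatin against control (y axis) against the log10 of the mean CPM (x axis) for the 254 tested miRNAs, with dark points for an adjusted p under 0.05. The 4 arms are red diamonds with their SE. miR-151a-3p lies at the right edge with a log2 fold change of 0.10, and the 5p arms lie at the left with 1.95 and 3.03.

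Set against the 3p arm of the same hairpin, the 5p arms made up a larger part on average after xanthatin, and this balance does not depend on library scaling. It is given as the log2 of the 3p count over the 5p count, with 0.5 added to each. For miR-151a the balance was 9.68, 10.59 and 11.32 in control replicates 1, 2 and 3, and 8.28, 8.04 and 9.93 in xanthatin replicates 1, 2 and 3. Xanthatin replicate 3 lay above control replicate 1, so the groups overlapped. The means were 10.5 ± 0.82 and 8.75 ± 1.03 (SD, n = 3), a difference of -1.78. With miR-151b added to the 5p arm the difference was -1.24.

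For miR-28 the balance was 9.09, 8.02 and 5.70 in control replicates 1, 2 and 3, and 4.95, 5.46 and 5.43 in xanthatin replicates 1, 2 and 3. The control values rest on 0, 1 and 3 reads of the 5p arm, so 9.09 depends on the added 0.5 and on library depth. The groups did not overlap, but control replicate 3 lay close to the xanthatin libraries. The means were 7.60 ± 1.73 and 5.28 ± 0.29, a difference of -2.32. It was -3.28 with 0.1 added and -1.81 with 1 added to each count. Without control replicate 3 it was -3.27, and without control replicate 1 it was -1.57.

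In each library the 3p arm held at least 96.9% of the reads of its hairpin for miR-28 and at least 99.6% for miR-151a. Of the 21 precursors with both arms tested, miR-151a and miR-28 ranked 1 and 2 in the excess of 3p over 5p reads, taken over both groups. The rank of miR-28 rests on its control libraries, with 0, 1 and 3 reads of the 5p arm. In the xanthatin libraries its mean balance, 5.28, lay below those of other precursors at 6.09 to 6.3. Of the other 19, 8 had more 3p than 5p reads in both groups. By the size of the change in balance, miR-28 ranked 8 and miR-151a 9 of 21. The median size over the other 19 was 1.45, and 9 of those 19 had groups that did not overlap. The balance moved toward the 5p arm in 13 of the other 19, as it did for miR-151a and miR-28, and toward the 3p arm in 6. Neither miR-151a-5p nor miR-28-5p would have passed the count filter on its control libraries alone. The filter thus favoured a change toward the 5p arm in these hairpins, and nothing is read from its direction or rank. The same can hold for other scarce arms among the 21.

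**Figure D3:**
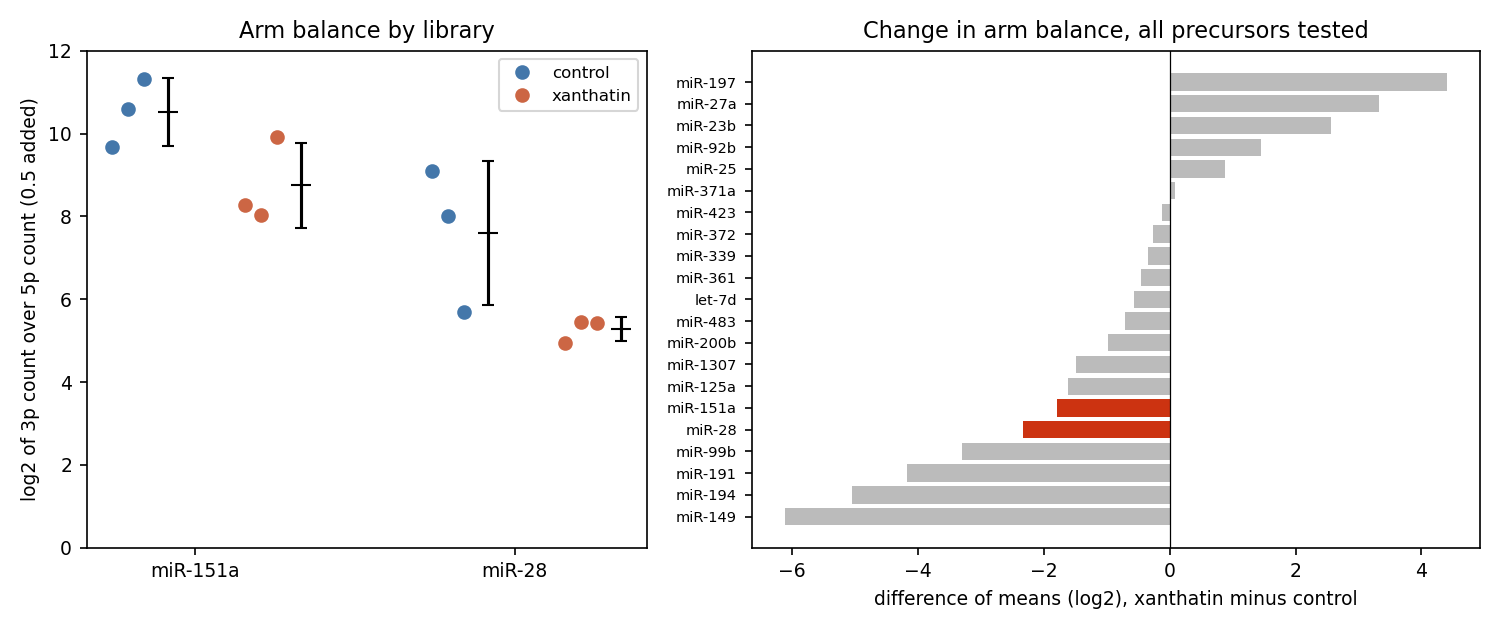
Left, the log2 of 3p over 5p counts (y axis, 0.5 added to each count) for miR-151a and miR-28 in each library, with the mean and SD of each group. Right, the difference of group means (x axis, log2, xanthatin minus control) for the 21 precursors with both arms tested. The red bars, miR-151a at -1.78 and miR-28 at -2.32, lie within the range of the grey bars of the other 19.

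Among themselves, the 4 arms were dominated by a single member. miR-151a-3p made up 97.3% ± 0.93 (SD, n = 3) of the family's reads in control and 95.7% ± 0.89 in xanthatin libraries. The share of miR-28-3p was 2.65% ± 0.94 and 3.94% ± 0.77, and control replicate 2, at 3.73%, lay above xanthatin replicates 2 and 3. Of all miRNA counts the 4 arms together took 14.8% ± 0.451 in control and 12.8% ± 0.577 after xanthatin.

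The loci were also compared with each other, arm by arm. miR-151a-3p outnumbered miR-28-3p 43.6, 25.8 and 49.2 times in control replicates 1, 2 and 3, and 19.8, 25.9 and 29.1 times in xanthatin replicates 1, 2 and 3. Control replicate 2 fell within the range of the xanthatin libraries. On the log2 scale the ratio was 5.25 ± 0.50 in control and 4.62 ± 0.29 in xanthatin libraries (SD, n = 3). The corresponding 5p ratio, with 0.5 added to each count, ranged from 1 to 29 in control and from 1.29 to 4.32 in xanthatin libraries. Its value of 29 was in control replicate 1, where miR-28-5p was read 0 times. The 5p counts are too low to order the groups.

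The wider group of relatives added few reads. Of the names miR-151a, miR-151b, miR-28 and miR-708, the table held 6 rows, and the 4 members were the ones with enough counts to be tested. miR-708-3p, whose sequence is shown above beside that of miR-28-3p, was read 2 times in control replicate 3, once in xanthatin replicate 1 and 0 times in the other 4 libraries. These counts are too few for a comparison.

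The miRNAs with the most similar profiles differed from member to member. Likeness was measured as the root mean square difference between centred profiles of log2(CPM + 1) over the 6 libraries, against 177 other tested known miRNAs. It is a description over libraries that share their group and depth. The profile of miR-151a-3p was closest to those of miR-99a-5p (a difference of 0.06), miR-26a-5p (0.13) and miR-423-5p (0.16). miR-99a-5p was at 9048 CPM in control libraries and 9855 CPM after xanthatin. miR-28-3p was closest to let-7e-5p (0.30), miR-183-5p (0.35) and miR-106b-3p (0.35).

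For the 5p arms the closest profiles were farther off. The smallest differences of miR-151a-5p were 0.70 to miR-148b-3p, 0.71 to let-7a-5p and 0.73 to miR-7-5p. Those of miR-28-5p were 1.11 to miR-328-3p, 1.5 to miR-197-3p and 1.55 to miR-1269b. Within the family the 3p arms were the most alike pair, at 0.46, and the arms of a hairpin were farther apart, at 1.23 for miR-151a and 2.37 for miR-28. Distances to a 5p arm rest on 23 control counts for miR-151a-5p and 4 for miR-28-5p, with 0 in control replicate 1. At such counts they include counting noise, so they do not show that the arms of a hairpin behaved differently.

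**Figure D4:**
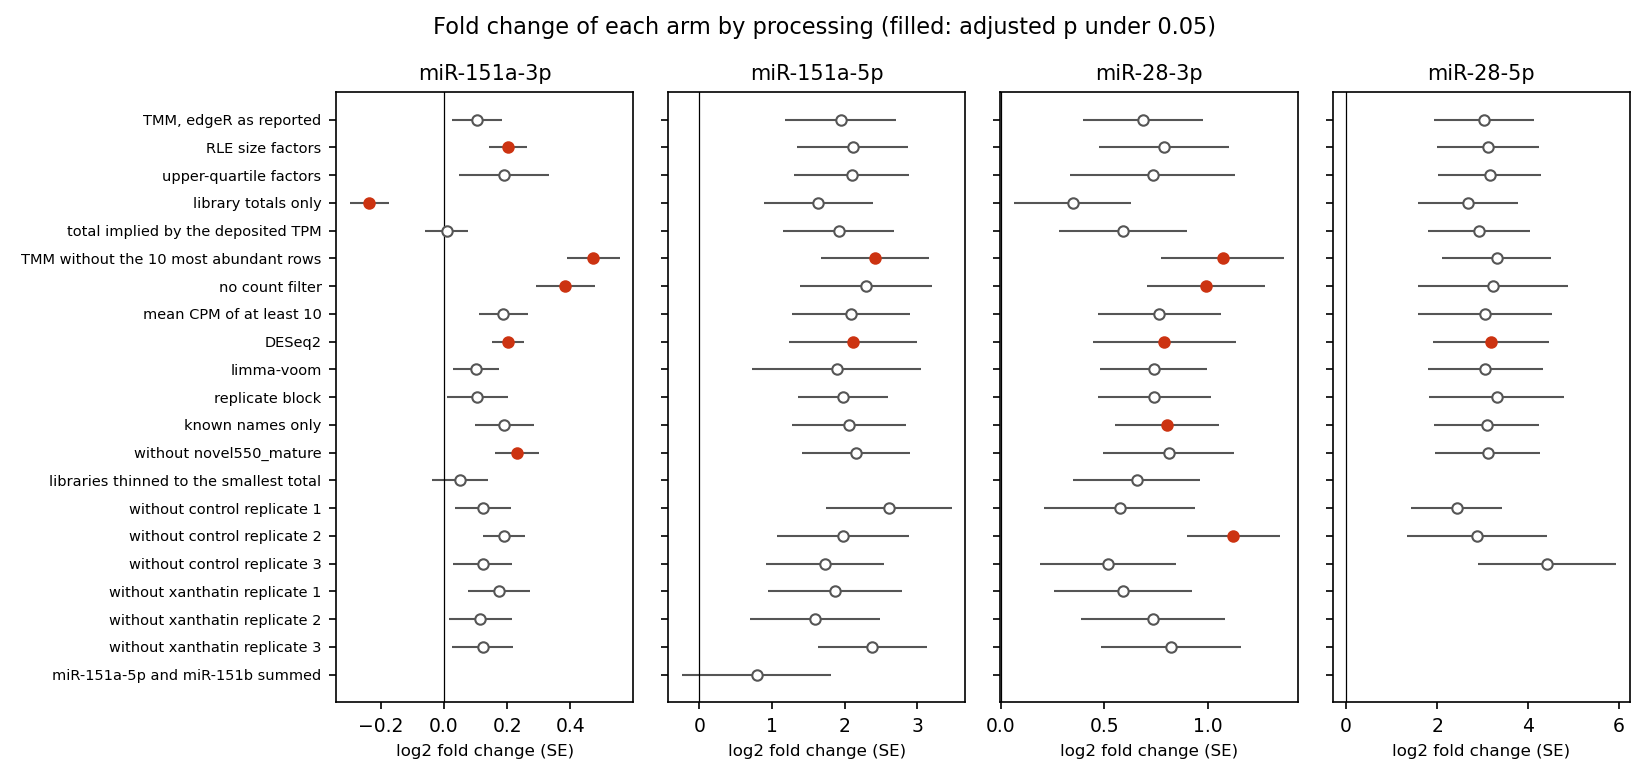
Log2 fold change of each arm with its SE (x axis, a scale for each panel) under each processing (rows), with filled points for an adjusted p under 0.05. miR-151a-3p lies below 0 only with library totals only, at -0.24, and the other arms lie above 0 wherever they could be tested. Rows without a point are settings where the arm had too few counts for the test or that did not concern it.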

How the data were processed

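Small RNA of 18 to 30 nt from vesicles of 3 control and 3 xanthatin samples was sequenced. For every library the table holds, per the file headers, the authors' raw count of each miRNA name and a TPM value, found here to be that count over a single constant. The submitters' processing notes name hg38. The aligner, miRNA database and counter, not given in the sources used here, are not named. Counts of all rows were fitted with edgeR 4.0.16 (R 4.3.3): quasi-likelihood test of group, TMM factors, default count filter (minimum count 10), Benjamini-Hochberg adjustment. This left 254 rows. SEs are the size of the log2 fold change over the square root of the F statistic. Replicates differed beyond sampling noise (chi-square per degree of freedom 16.1 to 21.3). The fit was tested on simulated data. The members, lists and tests were chosen with earlier results of these data known. Names given were the members, rows of miR-151a, miR-151b, miR-28 and miR-708, the 3 most similar tested known miRNAs of each member, and marker miRNAs. Alternatives were other scalings, other filters, DESeq2 1.42.0, limma-voom (limma 3.58.1), a replicate block, known names only, removal of novel550_mature, thinned libraries and leaving out each library.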

Additional observations from a re-analysis of the deposited data

How the results depend on the processing

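The number of the 4 members past the threshold, 0 as reported, was 1 with RLE factors, with library totals only, with known names only and without novel550_mature, the most abundant predicted sequence. It was 2 with no count filter, 3 with TMM without the 10 most abundant rows, 4 with DESeq2, and 0 to 1 with a library left out. Over all tested miRNAs, 81 of 254 passed with RLE factors, 82 of 254 with library totals only and 82 of 250 without novel550_mature. With no filter 67 of 1007 passed, without the 10 most abundant rows 90 of 258, and with DESeq2 114 of 254. The call gained with library totals only was lower in xanthatin libraries (miR-151a-3p, -0.24), and the other calls gained were higher. miR-151a-3p passed at 0.20 with RLE factors and with DESeq2, 0.47 without the 10 most abundant rows, 0.38 with no filter and 0.23 without novel550_mature. miR-151a-5p passed at 2.42 without the 10 most abundant rows and 2.11 with DESeq2. miR-28-3p passed at 1.07 without the 10 most abundant rows, 0.99 with no filter, 0.79 with DESeq2 and 0.80 with known names only, and ranged from 0.52 to 1.12 with a library left out. miR-28-5p passed with DESeq2, at 3.19. It had too few counts for the test without any one xanthatin replicate, and both 5p arms had too few in thinned libraries. Why the calls differed between settings was not tested.

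Over all miRNAs, 77 passed, 49 with known names only (of 175 tested) and 56 to 69 with a library left out (of 244 to 345 tested). The split of 34 higher and 43 lower became 22 and 60 with library totals only, 56 and 34 without the 10 most abundant rows, and 37 and 30 with no filter. With the replicate block 54 miRNAs and 0 members passed, with log2 fold changes of 0.11, 1.98, 0.74 and 3.31 for miR-151a-3p, miR-151a-5p, miR-28-3p and miR-28-5p. Deviations of same-numbered libraries correlated at 0.09, -0.08 and -0.14, and those of differently numbered libraries at -0.18 to 0.25. These values cannot decide whether same-numbered libraries were prepared together. Depth limits the 5p arms most, with 23 and 4 control counts in all for miR-151a-5p and miR-28-5p.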
